A study of Arabidopsis thaliana with 12 samples.

Results

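Untreated seedlings of the cellulose synthase mutant ixr1-1 were set against wild-type seedlings after 1 h of isoxaben, a herbicide that stops cellulose synthesis. The comparison used the 3 libraries titled ixr1-1 DMSO and the 3 titled Col-0 isoxaben, 6 of 12 libraries in all, with groups taken from the titles. Both groups were Arabidopsis thaliana seedlings of 6 days in the Col-0 ecotype, grown in shaken liquid medium with sucrose and kept for 1 h in fresh medium. The ixr1-1 seedlings, an isoxaben-resistant mutant, received the solvent DMSO alone, and the wild-type seedlings received 600 nM isoxaben dissolved in DMSO. The other 2 groups of 3 libraries, ixr1-1 with 600 nM isoxaben and Col-0 with DMSO, gave the opposite pairing and the untreated wild-type level. Genotype and treatment both differ between ixr1-1 DMSO and Col-0 isoxaben, so their shares in a difference cannot be told apart within this comparison. Seedlings of a flask were divided between treatments, so flasks were shared between groups of the same genotype and not between ixr1-1 DMSO and Col-0 isoxaben. A single mutant line was sampled, and any other change in its genome or its growth forms part of the genotype difference. Whether a group's 3 libraries stem from separate flasks is not in the labels. Each p-value is therefore relative to the scatter among libraries, and that scatter may be technical.

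Cellulose of growing walls is made at the plasma membrane by complexes of cellulose synthase (CESA) subunits, of which CESA1, CESA3 and a CESA6-like subunit form the type that works in primary walls. The ixr1 mutants carry changes in CESA3 and grow on isoxaben doses that stop wild-type seedlings. Receptor kinases at the cell surface sense wall damage and wall fragments, and their activation shares many early steps with pattern-triggered immunity, the response of plant cells to microbial molecules: calcium signals, kinase cascades, fast transcription factors of the ERF and WRKY families, and the hormones jasmonate, ethylene and salicylate. The comparison therefore sets the standing state of a mutant with an altered cellulose synthase beside the first hour after cellulose synthesis is blocked.

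Total counts lay between 8521491 and 20658035 in ixr1-1 DMSO and between 10490825 and 17963734 in Col-0 isoxaben. The files list 33602 genes, and 20379 of them passed the filter on low counts and were tested. No replicate pair agreed within sampling noise, with a chi-square per degree of freedom of at least 2.85. Genotypes were apart on the first principal component, with 49.1% of the variance. Transcripts of seed storage proteins, which mark embryos and ungerminated seeds, went with the genotype as well: 9 storage protein genes summed to 203, 682 and 580 CPM (counts scaled to library size with TMM factors) in ixr1-1 DMSO, against 0.869, 0.516 and 1.81 CPM in Col-0 isoxaben, with ixr1-1 replicate 1 the lowest of its group. With the storage level as a covariate 0 genes were called in ixr1-1 DMSO against Col-0 isoxaben, with 1043 at an unadjusted p under 0.05. The storage level does not overlap between the genotypes, so the part of either cannot be told apart. In whole seedlings a lower level can come from fewer cells of a type or from less RNA per cell, and these cannot be told apart either.

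In ixr1-1 DMSO, 1522 genes were higher and 1129 lower than in Col-0 isoxaben at an adjusted p under 0.05 (edgeR's quasi-likelihood test, Benjamini-Hochberg adjustment), which is 7.47% and 5.54% of the genes tested and 13.0% together. Most differences were small: the median size among the called genes was 0.475 on the log2 scale, 409 genes were at least 2-fold higher and 99 at least 2-fold lower, 2.01% and 0.486% of the genes tested and 2.49% together. For 17944 genes (88.1%) the 95% interval of the difference lay within 2-fold in either direction. The 3 and 3 libraries did not overlap for 5858 genes (28.7%), and 5443 genes had an unadjusted p under 0.05, where chance gives about 1019. Scaled by library size alone, 1946 genes were higher and 837 lower, so that 69.9% of the calls were higher, beside 57.4% with the scaling used here. The total of 2651 calls became 1672 without Col-0 isoxaben replicate 3 and 1546 without ixr1-1 DMSO replicate 2. The same fit called 1996 genes higher (9.79%) and 1513 lower (7.42%) in ixr1-1 DMSO than in Col-0 DMSO, 17.2% together. It called 125 higher (0.613%) and 34 lower (0.167%) in Col-0 isoxaben than in Col-0 DMSO, 0.780% together. Each of these shares 3 libraries with the comparison described here.

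CESA3 itself (AT5G05170, chromosome 5, 1530174 to 1535414, minus strand, as the files give it) had 508, 628 and 629 CPM in ixr1-1 DMSO and 607, 531 and 561 CPM in Col-0 isoxaben. The groups overlapped, and the log2 difference was 0.06 ± 0.10 (SE; adjusted p = 0.783; 95% interval -0.16 to 0.27). A transcript level does not check the genotype label of a line with an altered protein. The 16 tested genes of primary wall cellulose synthesis, which hold the CESA subunits of growing cells and proteins that travel with them, were neither higher nor lower by this test, with a list median of 0.055 beside -0.001 for all genes, and each of the 16 intervals lay within 2-fold. CESA1, the partner subunit of CESA3, averaged 533 ± 53.0 CPM in ixr1-1 DMSO and 578 ± 39.3 CPM in Col-0 isoxaben (SD, n = 3 each). CESA6, which fills the third place in the complex, averaged 504 ± 44.5 CPM in ixr1-1 DMSO and 455 ± 36.1 CPM in Col-0 isoxaben. The member with the smallest p was CC1, a companion protein that links the complex to microtubules, at 179 ± 14.2 CPM in ixr1-1 DMSO and 157 ± 5.16 CPM in Col-0 isoxaben (adjusted p = 0.0995), and it passed the threshold with library size scaling or a replicate block. Of 15 genes of secondary wall formation, the machinery of xylem, none passed, 14 intervals lay within 2-fold, and 1 was called lower without Col-0 isoxaben replicate 2.

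Genes that respond to isoxaben within the hour did not share 1 position in the mutant. The 12 genes with the smallest p among those that rose with isoxaben in Col-0 were set beside untreated ixr1-1. They were chosen on the Col-0 isoxaben libraries, so their levels are given as a description and the count of them above or below is no support for a difference. For AT1G14040 the untreated mutant overlapped the untreated wild type. This gene, of the EXS family of phosphate exporters, had 12.3, 13.4 and 14.9 CPM in ixr1-1 DMSO, against 26.9, 27.6 and 34.4 CPM in Col-0 isoxaben and 14.7, 12.4 and 12.8 CPM in Col-0 DMSO. It was below treated Col-0 in each mutant library.

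Another set lay between both Col-0 groups. ERF13, an ethylene response factor, had 2.22, 2.72 and 1.75 CPM in ixr1-1 DMSO, against 6.57, 6.08 and 5.02 CPM in Col-0 isoxaben and 0.750, 0.351 and 0.681 CPM in Col-0 DMSO. AT5G28610, which the reference annotation likens to an RNA helicase, had 1.87, 1.29 and 1.46 CPM in ixr1-1 DMSO, against 4.25, 4.87 and 5.09 CPM in Col-0 isoxaben and 0.614, 0.562 and 0.472 CPM in Col-0 DMSO. ERF6, a relative of ERF13, had 5.96, 6.78 and 6.23 CPM in ixr1-1 DMSO, against 9.85, 9.97 and 8.51 CPM in Col-0 isoxaben and 3.61, 2.74 and 2.31 CPM in Col-0 DMSO. The 3 groups did not overlap for any of these genes, nor for EXLA3, an expansin-like protein of the wall. EXLA3 had 2.57, 2.29 and 2.04 CPM in ixr1-1 DMSO, against 6.18, 6.19 and 6.62 CPM in Col-0 isoxaben and 1.16, 1.69 and 0.891 CPM in Col-0 DMSO. The tests that follow use the same Col-0 isoxaben libraries that chose the genes, and are given for the size of the difference. ERF13 was 2.52-fold lower in ixr1-1 DMSO than in Col-0 isoxaben (log2 -1.34 ± 0.20, adjusted p = 0.000243), EXLA3 2.76-fold lower (-1.46 ± 0.22, adjusted p = 0.000189) and ERF6 1.48-fold lower (-0.56 ± 0.15, adjusted p = 0.0156, and 0.0726 without Col-0 isoxaben replicate 2).

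A last set did not pass the test between the untreated mutant and treated Col-0, which does not show that the levels were equal. AT3G56880, with a VQ motif of proteins that bind WRKY factors, had 28.5, 30.4 and 32.4 CPM in ixr1-1 DMSO, against 29.1, 27.7 and 28 CPM in Col-0 isoxaben and 15.4, 15.0 and 15.2 CPM in Col-0 DMSO. WRKY40, a fast transcription factor of defence, had 14.5, 18.9 and 21.5 CPM in ixr1-1 DMSO, against 12.5, 16.3 and 13.6 CPM in Col-0 isoxaben and 4.09, 3.73 and 3.46 CPM in Col-0 DMSO. AT5G18470, a lectin-like protein, had 10.4, 12.2 and 12 CPM in ixr1-1 DMSO, against 13.4, 12.2 and 10.6 CPM in Col-0 isoxaben and 3.48, 4.57 and 2.99 CPM in Col-0 DMSO. For these 3 genes the untreated mutant overlapped treated Col-0 and lay above untreated Col-0 in every library. The log2 differences between ixr1-1 DMSO and Col-0 isoxaben were 0.11 (95% interval -0.04 to 0.27) for AT3G56880, 0.37 (0.05 to 0.69) for WRKY40 and -0.04 (-0.35 to 0.26) for AT5G18470. AT4G29780, annotated as a nuclease, and AT5G41750, an intracellular resistance protein of the TIR class, overlapped treated Col-0 in the same way, with 20.8 ± 2.11 and 8.65 ± 1.52 CPM in ixr1-1 DMSO and 24.1 ± 1.74 and 9.96 ± 0.642 CPM in Col-0 isoxaben. The last members of the 12, AT1G07135, a glycine-rich protein, and AT3G29000, a calcium-binding protein, had means of 7.87 ± 1.67 and 2.29 ± 0.555 CPM in ixr1-1 DMSO, 10.7 ± 0.971 and 4.06 ± 1.04 CPM in Col-0 isoxaben and 2.54 ± 0.532 and 0.395 ± 0.269 CPM in Col-0 DMSO, and did not pass the test. The interval of WRKY40 lay wholly on the higher side, though its adjusted p was 0.121 by edgeR's test. With a replicate block WRKY40 passed as higher (adjusted p = 0.0319) and AT3G29000 as lower (0.0189). Part of WRKY40 is near-identical to another gene, so its reads may be split.

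**Figure D1:**
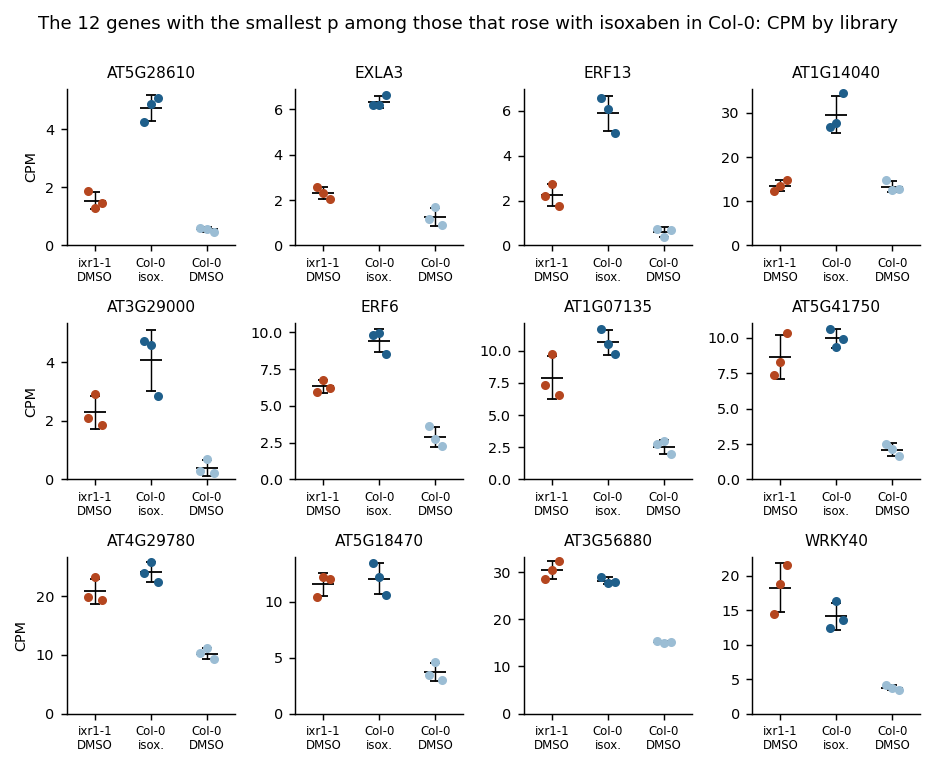
CPM (vertical axis, from 0) of the 12 genes with the smallest p among those that rose with isoxaben in Col-0, with a point for each library and a line and bar for the mean and SD of ixr1-1 DMSO, Col-0 isoxaben and Col-0 DMSO, ordered by the log2 difference between ixr1-1 DMSO and Col-0 isoxaben. AT5G28610, EXLA3 and ERF13 lie below Col-0 isoxaben in each ixr1-1 DMSO library, whereas AT3G56880 and WRKY40 overlap it.

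The 6 genes with the smallest p among those that fell with isoxaben in Col-0 were chosen on the same Col-0 isoxaben libraries, so low values there are built in and their levels are a description. For 5 of them each untreated mutant library was above every treated Col-0 library, beside 28.7% of all genes without overlap in either direction, and nothing is read from that count. AT1G05650, a pectin lyase-like protein, had 17.1, 14.1 and 15.3 CPM in ixr1-1 DMSO, against 8.11, 7.57 and 7.53 CPM in Col-0 isoxaben and 15.3, 18.0 and 19.5 CPM in Col-0 DMSO. AT4G25250, annotated as an inhibitor of pectin methylesterase, averaged 12.1 ± 1.49 CPM in ixr1-1 DMSO, 6.20 ± 1.12 CPM in Col-0 isoxaben and 17 ± 3.31 CPM in Col-0 DMSO. AT5G24100, a receptor-like kinase with leucine-rich repeats, averaged 12.4 ± 1.67 CPM in ixr1-1 DMSO, 6.15 ± 0.785 CPM in Col-0 isoxaben and 12.5 ± 1.72 CPM in Col-0 DMSO. The same held for the arabinogalactan protein AGP4 and the auxin-responsive AT4G31320, and 1 gene, AT4G13620 of the AP2/ERF family, overlapped treated Col-0.

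The promoters of the isoxaben genes that were lower in ixr1-1 DMSO are shown for ERF13 and EXLA3, as the 250 bases before the gene start of the RefSeq annotation on TAIR10.1. Capitals mark the W-box core, which reads TTGAC on a strand and GTCAA on the other, the letters that WRKY factors bind. ERF13 lies at chr2:18494965-18495214, plus strand, and EXLA3 at chr3:16892452-16892701, plus strand, 5' to 3' along the gene.
ERF13: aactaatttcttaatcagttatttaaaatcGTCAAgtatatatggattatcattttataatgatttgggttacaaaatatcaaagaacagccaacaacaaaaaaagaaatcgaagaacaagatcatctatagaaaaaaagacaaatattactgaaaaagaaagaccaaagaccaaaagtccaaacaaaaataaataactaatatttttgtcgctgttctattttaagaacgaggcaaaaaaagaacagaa
EXLA3: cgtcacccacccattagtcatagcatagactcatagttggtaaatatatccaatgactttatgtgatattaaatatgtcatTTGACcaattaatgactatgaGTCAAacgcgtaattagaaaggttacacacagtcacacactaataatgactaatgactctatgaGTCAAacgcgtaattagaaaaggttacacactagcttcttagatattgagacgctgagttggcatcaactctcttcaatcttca
ERF13 has 1 such core in this window and EXLA3 has 3.

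Fast stress transcription factors were on both sides. In this and the following groups, some list members without a place under the rule for named genes were chosen after their values were seen: FLS2, SOBIR1, MIK2, MPK3, the PROPEP genes, FRK1, PBS3, PR1, PR2, WRKY38, ACS5, XTH19, IGMT1, CZF1 and FAE1. PEPR1, THE1, FER, FEI1 and FUS3, and CESA1 and CESA6 above, have no place under the rule either. Counts of called members, here and in the later groups, stand beside 7.47% higher and 5.54% lower of all genes tested. Of 22 fast stress transcription factors tested, 5 were higher and 3 lower in ixr1-1 DMSO, with a list median of 0.24. WRKY22, a WRKY factor downstream of the flagellin receptor, had 38.4, 47.5 and 62.6 CPM in ixr1-1 DMSO and 31.3, 29.6 and 24.8 CPM in Col-0 isoxaben, without overlap (log2 0.80 ± 0.16, adjusted p = 0.00689). WRKY53, which acts in senescence and defence, had 22.4, 34.2 and 52.5 CPM in ixr1-1 DMSO and 15.4, 13.3 and 11.6 CPM in Col-0 isoxaben, 2.73-fold higher (log2 1.45 ± 0.30, adjusted p = 0.0133). Replicate 3 was the highest of the mutant libraries for both. The call of WRKY53 ended without Col-0 isoxaben replicate 2 or 3 (adjusted p up to 0.0573) and in a fit of these groups alone (0.0716), and 311 bases of its exons overlap a gene on the opposite strand. HSFA4A, a heat shock factor of stress signalling, averaged 13.3 ± 3.65 CPM in ixr1-1 DMSO and 8.87 ± 0.743 CPM in Col-0 isoxaben (adjusted p = 0.0125), and lost the call without Col-0 isoxaben replicate 2 or ixr1-1 DMSO replicate 3 (up to 0.0729). The count of higher members was 1 without Col-0 isoxaben replicate 2, 2 without Col-0 isoxaben replicate 3 or ixr1-1 DMSO replicate 3, and 8 without ixr1-1 DMSO replicate 1. The lower ones were ERF13, ERF6 and the zinc finger protein CZF1, and their number was 1 without Col-0 isoxaben replicate 2.

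Receptors and kinases that start pattern-triggered immunity were more often higher than lower in the untreated mutant. Of 22 genes of danger peptide and pattern receptor signalling, 11 were higher and 3 lower, with a list median of 0.29. Among the receptors, FLS2 (AT5G46330), which binds bacterial flagellin, had 23.0, 28.3 and 38.4 CPM in ixr1-1 DMSO and 15.6, 11.8 and 8.99 CPM in Col-0 isoxaben, 2.51-fold higher (log2 1.33 ± 0.23, adjusted p = 0.00444). SOBIR1, the partner kinase of receptor-like proteins, had 131, 159 and 204 CPM in ixr1-1 DMSO and 94.0, 68.2 and 55.1 CPM in Col-0 isoxaben, 2.29-fold higher (adjusted p = 0.00582, and 0.0525 in a fit of these groups alone). Of its exons, 478 bases overlap the gene RAP on the opposite strand. EFR, the receptor of bacterial elongation factor Tu, averaged 6.77 ± 1.18 CPM in ixr1-1 DMSO and 3.36 ± 0.436 CPM in Col-0 isoxaben (log2 1.06 ± 0.18, adjusted p = 0.000642), though a stretch of it is near-identical to another gene. No mutant library overlapped a Col-0 isoxaben library for these receptors.

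Of their co-receptors and kinases, BKK1, a co-receptor next of kin to BAK1, had 54.1, 63.4 and 60.6 CPM in ixr1-1 DMSO and 36.5, 30.3 and 28.6 CPM in Col-0 isoxaben (log2 0.92 ± 0.11, adjusted p = 8.05e-05). BIK1, the cytoplasmic kinase that the receptor complexes release, had 21.9, 27.7 and 39.5 CPM in ixr1-1 DMSO and 15.6, 14.9 and 14.9 CPM in Col-0 isoxaben (0.98 ± 0.16, adjusted p = 0.00149). MPK3, a mitogen-activated protein kinase of the same pathway, averaged 65.1 ± 7.64 CPM in ixr1-1 DMSO and 48.8 ± 2.64 CPM in Col-0 isoxaben (0.43 ± 0.095, adjusted p = 0.00605), with 33.1 ± 2.04 CPM in Col-0 DMSO. All 3 were above treated Col-0 in each mutant library.

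Called genes of the danger peptide branch were lower. PEPR2, a receptor of the Pep danger peptides, had 5.49, 7.69 and 7.5 CPM in ixr1-1 DMSO and 12.7, 13.3 and 18.2 CPM in Col-0 isoxaben, 2.10-fold lower without overlap (log2 -1.07 ± 0.16, adjusted p = 0.00031), and 6.14 ± 0.821 CPM in Col-0 DMSO. PROPEP4, a precursor of such a peptide, had 3.85, 3.96 and 2.73 CPM in ixr1-1 DMSO and 5.12, 5.90 and 6.55 CPM in Col-0 isoxaben (-0.72 ± 0.17, adjusted p = 0.00669). PROPEP1, another precursor, averaged 3.86 ± 0.714 CPM in ixr1-1 DMSO and 6.74 ± 0.878 CPM in Col-0 isoxaben (adjusted p = 0.0247), a call that ended without any 1 of Col-0 isoxaben replicates 1 and 3 and ixr1-1 DMSO replicates 1 and 2 (up to 0.11). PEPR1, PROPEP2 and PROPEP3 did not pass. PEPR2, PROPEP4 and PROPEP1 were the 3 lower members of the list. Lower members numbered 5 without ixr1-1 DMSO replicate 3. They numbered 2 without Col-0 isoxaben replicate 1 or 3 or ixr1-1 DMSO replicate 1 or 2. Higher members of the list numbered 8 to 12 without 1 library.

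Of 14 marker genes of pattern-triggered immunity, 4 were higher in ixr1-1 DMSO and 1 was lower, with a median of 0.30. CYP81F2, a cytochrome P450 that modifies indole glucosinolates for defence, had 22.9, 35.9 and 37.6 CPM in ixr1-1 DMSO and 7.15, 3.5 and 3.35 CPM in Col-0 isoxaben, 7.34-fold higher (log2 2.88 ± 0.34, adjusted p = 0.000666). SAG21, a mitochondrial protein of stress and senescence, had 207, 265 and 237 CPM in ixr1-1 DMSO and 136, 124 and 117 CPM in Col-0 isoxaben (0.92 ± 0.086, adjusted p = 1.63e-06). CPK28, a calcium-dependent kinase that limits the response through BIK1, averaged 64.8 ± 5.81 CPM in ixr1-1 DMSO and 41.8 ± 4.74 CPM in Col-0 isoxaben (0.65 ± 0.097, adjusted p = 0.000267). These 3 did not overlap between the groups. FRK1, the receptor-like kinase gene in common use as a reporter of flagellin, had 5.61, 7.73 and 12.1 CPM in ixr1-1 DMSO and 6.08, 2.92 and 2.58 CPM in Col-0 isoxaben, with overlap (1.2 ± 0.32, adjusted p = 0.0259). Its call ended without Col-0 isoxaben replicate 2 or 3 or ixr1-1 DMSO replicate 2 or 3 (up to 0.112) and with a replicate block or a fit of these groups alone. CML39, a calmodulin-like calcium sensor, was the lower one, at 0.467, 0.573 and 0.487 CPM in ixr1-1 DMSO and 3.67, 5.10 and 4.32 CPM in Col-0 isoxaben, 8.29-fold lower (-3.05 ± 0.27, adjusted p = 8.82e-07). Its untreated Col-0 level was 0.629 ± 0.169 CPM. The lower members numbered 2 without ixr1-1 DMSO replicate 2 or 3.

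The largest higher genes outside the seed lists were chosen after their values were seen, with the seed lists set aside. Only called genes with an average log2 CPM of 1 or more and no overlap between the groups could enter. The absence of overlap was therefore built in. The set holds receptors, transcription factors and a wall protein, among others, and the seed lists may not hold every seed gene. AT3G01570 and AT2G05580 belong to the set and changed sign with the storage level as a covariate (log2 -2.36 and -4.64). Neither was called in that fit of edgeR's test (adjusted p = 0.983 and 0.894), and 37 of 200 gene results changed sign with it. The storage level does not overlap between the genotypes, so the sign tells nothing about either gene. The calls of AT3G01570 and AT2G05580 also ended without some single libraries (adjusted p up to 0.0786 and 0.133). RLP21, a receptor-like protein with leucine-rich repeats, had 8.88, 10.4 and 17.3 CPM in ixr1-1 DMSO and 1.45, 0.573 and 1.05 CPM in Col-0 isoxaben, 12.5-fold higher (log2 3.65 ± 0.41, adjusted p = 0.000224). RLP23, the receptor of a peptide from microbial NLP proteins, had 6.54, 8.74 and 16.9 CPM in ixr1-1 DMSO and 2.41, 1.2 and 0.906 CPM in Col-0 isoxaben, 7.46-fold higher (adjusted p = 0.00398). CRK6, a cysteine-rich receptor-like kinase, had 4.55, 4.06 and 5.55 CPM in ixr1-1 DMSO and 0.483, 0.688 and 0.767 CPM in Col-0 isoxaben, 6.93-fold higher (adjusted p = 7.76e-06). RLP21 also passes the rule for the largest changes with the seed genes kept. None of the 3 overlapped between the groups, as the choice required.

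WRKY30, a WRKY factor of stress and defence, had 11.8, 20.1 and 30.5 CPM in ixr1-1 DMSO and 5.02, 2.92 and 2.02 CPM in Col-0 isoxaben, 6.58-fold higher (log2 2.72 ± 0.42, adjusted p = 0.00306). NAC036, of the NAC family of transcription factors, had 21.6, 29.2 and 24.1 CPM in ixr1-1 DMSO and 6.18, 4.47 and 3.35 CPM in Col-0 isoxaben, 5.56-fold higher (adjusted p = 1.21e-06). AGP5, an arabinogalactan protein of the wall, had 6.31, 8.74 and 7.40 CPM in ixr1-1 DMSO and 2.12, 1.09 and 1.05 CPM in Col-0 isoxaben, 5.66-fold higher (adjusted p = 2.8e-06). As the choice required, each was above every Col-0 isoxaben library in each mutant library. PDF1.4, a defensin-like peptide, AT1G26380, a berberine bridge-like oxidase, and the receptor-like kinase AT1G51820 belong to the same set, at 5.38-fold, 6.24-fold and 7.94-fold. In untreated Col-0, WRKY30 averaged 1.87 ± 0.576, NAC036 3.44 ± 0.709 and RLP21 0.921 ± 0.156 CPM, and every ixr1-1 DMSO library was above that.

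**Figure D2:**
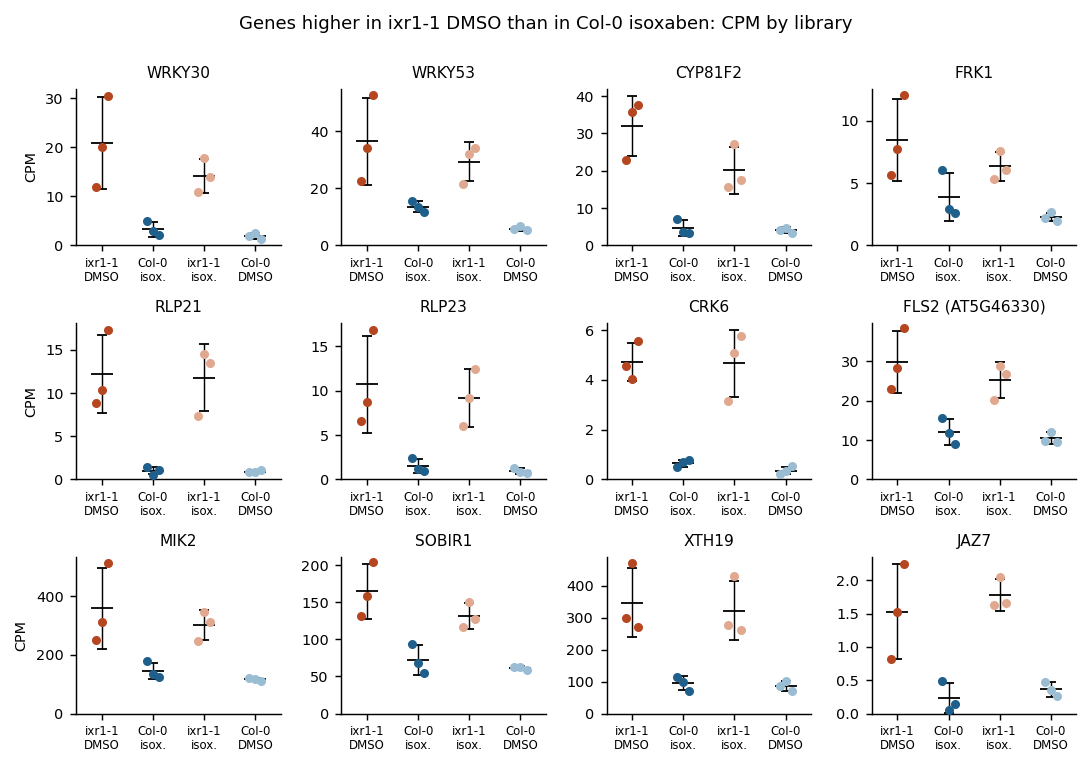
CPM (vertical axis, from 0) of 12 genes that were higher in ixr1-1 DMSO, with a point for each library and a line and bar for the mean and SD of ixr1-1 DMSO, Col-0 isoxaben, ixr1-1 isoxaben and Col-0 DMSO. The points of both ixr1-1 groups lie above both Col-0 groups for WRKY30, CYP81F2 and RLP21, and FRK1 overlaps between ixr1-1 DMSO and Col-0 isoxaben.

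The promoters of 4 of these defence genes are shown because W-box cores stood in a larger share of the promoters of the higher genes. They are the 250 bases before the RefSeq gene start on TAIR10.1, with the core again in capitals. WRKY30 lies at chr5:8154711-8154960, minus strand, CYP81F2 at chr5:23187590-23187839, plus strand, WRKY53 at chr4:12393983-12394232, minus strand and FRK1 at chr2:8329945-8330194, minus strand.
WRKY30: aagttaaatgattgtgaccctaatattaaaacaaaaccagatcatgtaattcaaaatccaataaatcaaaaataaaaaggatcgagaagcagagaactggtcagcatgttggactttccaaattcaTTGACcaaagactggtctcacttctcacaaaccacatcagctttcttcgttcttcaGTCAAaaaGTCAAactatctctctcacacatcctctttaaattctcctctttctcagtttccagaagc
CYP81F2: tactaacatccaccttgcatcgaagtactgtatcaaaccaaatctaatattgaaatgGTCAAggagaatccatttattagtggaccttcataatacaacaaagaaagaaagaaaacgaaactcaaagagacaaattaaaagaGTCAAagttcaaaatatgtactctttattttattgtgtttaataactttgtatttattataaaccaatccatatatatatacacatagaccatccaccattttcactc
WRKY53: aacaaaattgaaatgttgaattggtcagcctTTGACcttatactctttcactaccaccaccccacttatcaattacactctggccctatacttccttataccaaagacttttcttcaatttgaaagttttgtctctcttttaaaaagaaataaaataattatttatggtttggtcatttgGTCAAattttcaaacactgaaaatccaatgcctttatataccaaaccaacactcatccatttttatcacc
FRK1: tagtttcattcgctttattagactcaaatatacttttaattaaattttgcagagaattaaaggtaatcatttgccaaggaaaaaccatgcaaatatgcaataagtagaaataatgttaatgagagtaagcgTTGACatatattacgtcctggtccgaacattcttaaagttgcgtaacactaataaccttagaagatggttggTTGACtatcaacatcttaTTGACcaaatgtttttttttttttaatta
WRKY30 and FRK1 have 3 cores each, and CYP81F2 and WRKY53 have 2 each. Counted on both strands, at least 1 core stood in 45.0% of 26711 promoters of protein-coding genes of this length. It stood in 802 of 1479 promoters (54.2%) of the genes higher in ixr1-1 DMSO, in 493 of 1116 (44.2%) of those lower and in 44.6% of those in neither set. Of the genes at least 2-fold higher, 239 of 396 (60.4%) had 1 or more cores and 31.1% had 2 or more, against 14.1% with 2 or more among all promoters. A match describes the letters in this window and is not shown to be bound.

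Salicylate genes were divided. Of 21 tested, 6 were higher and 4 lower in ixr1-1 DMSO, with a median of 0.035, and the lower ones numbered 2 without ixr1-1 DMSO replicate 2. GRXC9, a glutaredoxin induced by salicylate, had 0.701, 0.955 and 0.876 CPM in ixr1-1 DMSO and 4.35, 4.13 and 2.37 CPM in Col-0 isoxaben, 4.08-fold lower (log2 -2.03 ± 0.31, adjusted p = 0.000254). NPR3, a salicylate receptor that restrains the response, had 28.7, 29.6 and 27.0 CPM in ixr1-1 DMSO and 62.2, 50.5 and 43.4 CPM in Col-0 isoxaben, 1.81-fold lower (adjusted p = 0.000314). Neither overlapped, and both averaged near the mutant in untreated Col-0, at 0.686 ± 0.295 and 25.1 ± 1.39 CPM. WRKY38, a repressor of the response, was at 0.234, 0.191 and 0.195 CPM in ixr1-1 DMSO and 7.34, 2.81 and 0.976 CPM in Col-0 isoxaben (adjusted p = 0.00835). PR1, the usual marker of salicylate, was at 0.234, 0.0477 and 0.195 CPM in ixr1-1 DMSO and 1.35, 1.2 and 0.697 CPM in Col-0 isoxaben (adjusted p = 0.00813). Both lost their call without ixr1-1 DMSO replicate 2 (0.0673 for WRKY38 and 0.0956 for PR1), and WRKY38 also in a fit of these groups alone (0.098). On the higher side stood NIMIN3, an interactor of the NPR receptors, with 9.93, 9.69 and 10.5 CPM in ixr1-1 DMSO and 5.50, 7.28 and 5.79 CPM in Col-0 isoxaben (adjusted p = 0.00266). PBS3, an enzyme of salicylate synthesis, had 1.99, 1.19 and 1.36 CPM in ixr1-1 DMSO and 0.579, 0.287 and 0.140 CPM in Col-0 isoxaben (adjusted p = 0.00582). SAG101 was higher too (adjusted p = 0.00327). PR2, unlike PR1, was also higher (adjusted p = 0.0284), with a log2 change of 1.505 to 2.655 without 1 library. The call of PR2 ended without Col-0 isoxaben replicate 2 or 3 or ixr1-1 DMSO replicate 3 (up to 0.112) and in a fit of these groups alone (0.0577).

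Called jasmonate and ethylene genes were mostly higher. Of 26 jasmonate genes, 10 were higher and 1 lower, with a median of 0.27, and 5 were higher without Col-0 isoxaben replicate 2 or ixr1-1 DMSO replicate 2. CYP94C1, which breaks down the active hormone, had 15.1, 18.1 and 20.7 CPM in ixr1-1 DMSO and 7.82, 5.39 and 5.51 CPM in Col-0 isoxaben, 2.96-fold higher (log2 1.56 ± 0.19, adjusted p = 8.41e-05). JAZ7, a repressor that jasmonate itself induces, had 0.818, 1.53 and 2.24 CPM in ixr1-1 DMSO and 0.483, 0.0573 and 0.140 CPM in Col-0 isoxaben (2.96 ± 0.51, adjusted p = 0.000744). Neither overlapped between the groups. The repressor JAZ6 averaged 73.2 ± 7.49 CPM in ixr1-1 DMSO and 50.6 ± 5.40 CPM in Col-0 isoxaben (adjusted p = 0.000626), and VSP1, a storage protein of leaves that marks the hormone, 4.85 ± 0.268 CPM in ixr1-1 DMSO and 2.23 ± 0.539 CPM in Col-0 isoxaben (adjusted p = 0.00117).

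Of 20 genes of ethylene synthesis and its receptors, 7 were higher and 0 lower in ixr1-1 DMSO, with a median of 0.34, and 7 or 8 were higher without any 1 library. The receptor ETR2 had 11.4, 14.9 and 14 CPM in ixr1-1 DMSO and 5.41, 6.59 and 5.44 CPM in Col-0 isoxaben, 2.32-fold higher (log2 1.22 ± 0.15, adjusted p = 3.04e-05). The receptor ERS1 had 97.9, 104 and 105 CPM in ixr1-1 DMSO and 74.1, 67.8 and 70.0 CPM in Col-0 isoxaben (0.54 ± 0.064, adjusted p = 2.36e-05), and ERS2 averaged 14.1 ± 1.48 CPM in ixr1-1 DMSO and 7.47 ± 0.785 CPM in Col-0 isoxaben (adjusted p = 0.00071). These receptors are themselves known to rise with the hormone. Of the synthesis enzymes, ACO4, an ACC oxidase, averaged 307 ± 15.0 CPM in ixr1-1 DMSO and 199 ± 24.9 CPM in Col-0 isoxaben (adjusted p = 0.000373). ACS5, an ACC synthase, had 0.934, 2.39 and 2.14 CPM in ixr1-1 DMSO and 0.290, 0.401 and 0.418 CPM in Col-0 isoxaben, 5.05-fold higher (adjusted p = 0.00122), with 1.25 ± 0.521 CPM in Col-0 DMSO.

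Among receptors and ligands of wall integrity, 8 of 21 tested genes were higher and 1 lower in ixr1-1 DMSO, with a median of 0.24. The higher ones numbered 13 with library size scaling and 5 without Col-0 isoxaben replicate 3, and the lower one, FEI1, was not called without Col-0 isoxaben replicate 2. WAK2, a wall-associated kinase that binds pectin, had 42.9, 42.2 and 56.5 CPM in ixr1-1 DMSO and 22.0, 16.6 and 18.4 CPM in Col-0 isoxaben, 2.50-fold higher (log2 1.32 ± 0.13, adjusted p = 2.36e-05). MCA2, a stretch-related calcium channel, had 13.9, 16.7 and 13.4 CPM in ixr1-1 DMSO and 6.66, 8.08 and 6.76 CPM in Col-0 isoxaben (1.04 ± 0.14, adjusted p = 8.7e-05). MIK2, a receptor kinase known for its part in the response to isoxaben, had 252, 312 and 515 CPM in ixr1-1 DMSO and 178, 136 and 125 CPM in Col-0 isoxaben, 2.46-fold higher (adjusted p = 0.0125). Its call ended without Col-0 isoxaben replicate 2 or 3 (up to 0.0528) and in a fit of these groups alone (0.0866). None of the 3 overlapped between the groups. THE1, a receptor kinase of wall integrity sensing, averaged 170 ± 8.09 CPM in ixr1-1 DMSO and 153 ± 5.01 CPM in Col-0 isoxaben (adjusted p = 0.126). FER, a relative of THE1, averaged 280 ± 27.0 CPM in ixr1-1 DMSO and 257 ± 14.1 CPM in Col-0 isoxaben (adjusted p = 0.4). WAKL10 had 31 counts in ixr1-1 DMSO and 1 in Col-0 isoxaben.

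Wall loosening and remodelling enzymes were on both sides, 5 of 24 higher and 3 lower, beside 7.47% and 5.54% of all genes. The higher ones numbered 3 without Col-0 isoxaben replicate 3 or ixr1-1 DMSO replicate 2. XTH19, a xyloglucan endotransglucosylase, had 299, 471 and 272 CPM in ixr1-1 DMSO and 115, 98.9 and 70.6 CPM in Col-0 isoxaben, 3.68-fold higher (log2 1.88 ± 0.30, adjusted p = 0.0047). XTH23 of the same family had 110, 115 and 103 CPM in ixr1-1 DMSO and 66.6, 67.7 and 59.8 CPM in Col-0 isoxaben (0.76 ± 0.082, adjusted p = 9.41e-06), and XTH20 had 8.99, 10.5 and 10.1 CPM in ixr1-1 DMSO and 20.1, 16.9 and 21.3 CPM in Col-0 isoxaben (-0.95 ± 0.13, adjusted p = 8.95e-05). So members of 1 enzyme family stood on opposite sides. The expansin EXPA1 averaged 408 ± 10.6 CPM in ixr1-1 DMSO and 296 ± 4.29 CPM in Col-0 isoxaben (adjusted p = 5.18e-05).

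Seed transcripts gave the largest differences of all. Of 9 seed storage protein genes, 8 were higher in ixr1-1 DMSO and 0 lower, and of 8 tested oil body and seed lipid genes 7 were higher. Without ixr1-1 DMSO replicate 2 the counts were 5 and 4. CRU3, a cruciferin, the globulin store of the embryo, had 55.1, 201 and 160 CPM in ixr1-1 DMSO and 0 in each Col-0 isoxaben library, at least 2235-fold higher when 3 counts in all are taken as the limit for that group. Its fitted p passed only narrowly (adjusted p = 0.0439), and was above the threshold without any 1 of the 6 libraries (up to 0.135), and with no filter on low counts or a fit of these groups alone (up to 0.103). CRA1, another cruciferin, had 79.6, 232 and 198 CPM in ixr1-1 DMSO and 0, 0.0573 and 0 CPM in Col-0 isoxaben, 7575 counts against 1, a ratio of 8025 with a 95% counting interval of 1440 to 317017 (adjusted p = 0.00183). SESA3, an albumin, had 21.0, 79.4 and 72.3 CPM in ixr1-1 DMSO and 0 in each Col-0 isoxaben library, at least 913-fold higher (adjusted p = 0.0167, 0.0558 without ixr1-1 DMSO replicate 2 and 0.127 in a fit of these groups alone). Replicate 1 was the lowest of the mutant libraries for all 3 genes, and no mutant library came near 0.

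Among oil body proteins, OLEO1, the main oleosin of the embryo, had 11, 26.9 and 19.3 CPM in ixr1-1 DMSO and 0 in each Col-0 isoxaben library, at least 302-fold higher (adjusted p = 0.0126). OLEO4 had 4.09, 7.54 and 6.52 CPM in ixr1-1 DMSO and 0.483, 0.688 and 0.628 CPM in Col-0 isoxaben, 10.1-fold higher (adjusted p = 7.43e-06). FAE1, which lengthens the fatty acids of seed oil, had 26 counts in ixr1-1 DMSO and 0 in Col-0 isoxaben, at least 9.18-fold higher, and its call ended without Col-0 isoxaben replicate 2 or 3 or ixr1-1 DMSO replicate 2 (up to 0.0773). Of 11 late embryogenesis genes, 6 were tested and 2 were higher, PER1, a peroxiredoxin of dry seeds, and M17. PER1 had 98 counts in ixr1-1 DMSO and 1 in Col-0 isoxaben, a ratio of 104 (95% counting interval 18.2 to 4142), and the call of M17 ended without any 1 of 5 libraries (up to 0.116), all but ixr1-1 DMSO replicate 2. Of 8 regulators of embryo maturation only ABI5 passed the filter on low counts, at 1.37 ± 0.175 CPM in ixr1-1 DMSO and 0.988 ± 0.292 CPM in Col-0 isoxaben (adjusted p = 0.343), and the 8 together summed to 2.10 to 3.25 CPM in ixr1-1 DMSO and 1.64 to 2.29 CPM in Col-0 isoxaben. FUS3 had 11 counts in ixr1-1 DMSO and 0 in Col-0 isoxaben. Bounds and counting intervals cover counting error only.

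**Figure D3:**
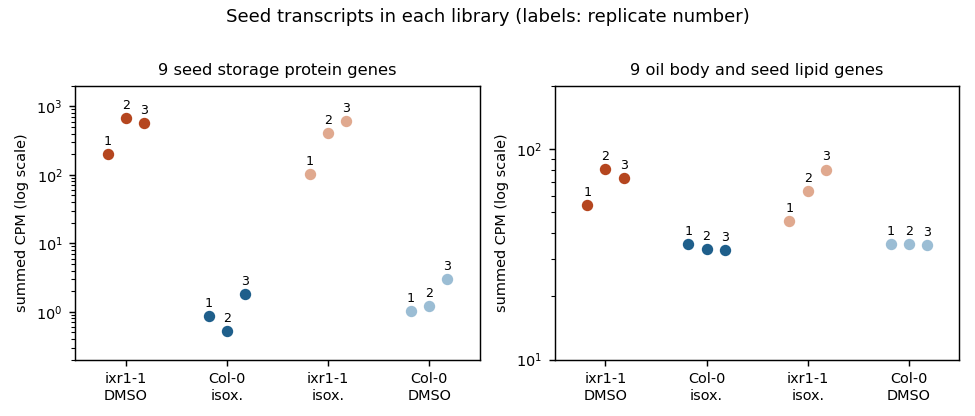
Summed CPM on a log axis of 9 seed storage protein genes (left) and 9 oil body and seed lipid genes (right), with a point for each library, numbered by replicate, in ixr1-1 DMSO, Col-0 isoxaben, ixr1-1 isoxaben and Col-0 DMSO. The storage sums run from 203 to 682 CPM in ixr1-1 DMSO and from 0.516 to 1.81 CPM in Col-0 isoxaben, with replicate 1 the lowest in both ixr1-1 groups.

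The promoters of CRU3 and SESA3 are shown as those of the storage genes with the largest bounds. Capitals mark the RY element, CATGCA or TGCATG on the other strand, the letters that embryo regulators such as FUS3 bind. They are again the 250 bases before the RefSeq start on TAIR10.1, CRU3 at chr4:14087306-14087555, plus strand and SESA3 at chr4:13611546-13611795, plus strand.
CRU3: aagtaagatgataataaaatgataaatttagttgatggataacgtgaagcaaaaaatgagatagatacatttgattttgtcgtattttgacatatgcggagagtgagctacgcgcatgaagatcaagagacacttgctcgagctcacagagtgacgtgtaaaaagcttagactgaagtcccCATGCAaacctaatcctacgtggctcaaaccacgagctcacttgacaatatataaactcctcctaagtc
SESA3: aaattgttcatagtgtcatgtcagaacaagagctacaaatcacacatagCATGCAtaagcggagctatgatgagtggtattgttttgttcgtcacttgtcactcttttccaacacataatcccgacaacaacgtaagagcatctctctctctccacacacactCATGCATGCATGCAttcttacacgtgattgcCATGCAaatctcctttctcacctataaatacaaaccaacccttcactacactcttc
CRU3 has 1 element, and SESA3 has 7 when overlapping matches on both strands are counted. The element stood in 8 of 9 promoters of the storage list and 8 of 9 of the oil body list, against 8.51% of 26711 promoters.

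Genes of glucosinolate synthesis, which makes the sulphur-rich defence compounds of the cabbage family, were more often lower than higher in the untreated mutant. Of 17 aliphatic glucosinolate genes, 8 were lower and 0 higher in ixr1-1 DMSO, with a median of -0.22, and 5 were lower without Col-0 isoxaben replicate 3 or ixr1-1 DMSO replicate 2. SOT17, a sulfotransferase of the last core step, had 66.8, 61.0 and 77.2 CPM in ixr1-1 DMSO and 89.6, 99.0 and 101 CPM in Col-0 isoxaben (log2 -0.51 ± 0.081, adjusted p = 0.000404). UGT74C1, a glucosyltransferase of the step before, averaged 160 ± 6.84 CPM in ixr1-1 DMSO and 202 ± 16.7 CPM in Col-0 isoxaben (adjusted p = 0.00261). The groups did not overlap for either gene. Of 16 indole genes, 3 were higher and 6 lower. CYP79B2, which starts the indole branch from tryptophan, had 106, 119 and 122 CPM in ixr1-1 DMSO and 166, 170 and 195 CPM in Col-0 isoxaben (adjusted p = 5.74e-05). CYP79B3, which does the same step, had 70.5, 76.3 and 73.6 CPM in ixr1-1 DMSO and 104, 103 and 109 CPM in Col-0 isoxaben (adjusted p = 0.000407). IGMT1 and IGMT2, methyltransferases that act after CYP81F2, were higher with it, at 18.4 ± 3.36 and 18.6 ± 6.47 CPM in ixr1-1 DMSO and 7.49 ± 0.925 and 3.92 ± 0.229 CPM in Col-0 isoxaben (adjusted p = 0.00212 and 0.00133). IGMT2 is near-identical to IGMT3, so its reads may be shared.

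Called genes of detoxification were mostly lower. Of 22 glutathione transferases and related genes, 9 were lower and 1 higher in ixr1-1 DMSO, with a median of -0.33, and the list summed to 6747, 4805 and 5660 CPM in ixr1-1 DMSO and 8348, 8353 and 8355 CPM in Col-0 isoxaben. The lower members numbered 3 without Col-0 isoxaben replicate 2 or ixr1-1 DMSO replicate 3, 4 without Col-0 isoxaben replicate 1, and 5 without Col-0 isoxaben replicate 3 or ixr1-1 DMSO replicate 2. GSTU25, a glutathione transferase, had 80.7, 34.8 and 41.5 CPM in ixr1-1 DMSO and 196, 183 and 188 CPM in Col-0 isoxaben, 3.71-fold lower without overlap (log2 -1.89 ± 0.38, adjusted p = 0.0131, and 0.0545 without ixr1-1 DMSO replicate 2). UGT74E2, a glucosyltransferase of indole butyric acid, averaged 86.8 ± 16.0 CPM in ixr1-1 DMSO and 147 ± 12.6 CPM in Col-0 isoxaben (adjusted p = 0.00465). The higher member was AOX1A, the alternative oxidase of mitochondria, with 57.0, 64.7 and 67.5 CPM in ixr1-1 DMSO and 32.5, 31.2 and 36.5 CPM in Col-0 isoxaben (0.92 ± 0.11, adjusted p = 5.65e-05). Its relative AOX1B had 3.15, 0.621 and 2.14 CPM in ixr1-1 DMSO and 8.98, 7.85 and 7.88 CPM in Col-0 isoxaben, 4.96-fold lower (adjusted p = 0.00793).

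Called genes of iron and phosphate shortage were mostly lower as well. Of 18 iron deficiency genes, 8 were lower and 0 higher in ixr1-1 DMSO, with a median of -0.42. The number was 4 without Col-0 isoxaben replicate 1 and 5 without Col-0 isoxaben replicate 3 or ixr1-1 DMSO replicate 2 or 3. IMA1, a peptide that signals iron need, had 13.9, 11.3 and 12.9 CPM in ixr1-1 DMSO and 23.1, 20.4 and 21.1 CPM in Col-0 isoxaben (log2 -0.78 ± 0.10, adjusted p = 6.66e-05). BHLH38, a factor that switches on iron uptake, had 42.2, 32.8 and 38.6 CPM in ixr1-1 DMSO and 75.3, 62.8 and 76.3 CPM in Col-0 isoxaben (-0.93 ± 0.12, adjusted p = 0.000209). Both were below every Col-0 isoxaben library in each mutant library. Of 14 phosphate starvation genes, 4 were lower and 1 higher, GPT2, a glucose phosphate carrier of plastids. GPT2 lost its call without Col-0 isoxaben replicate 1 or 2 or ixr1-1 DMSO replicate 1 or 2 (up to 0.104) and in a fit of these groups alone (0.0733). IPS1, a noncoding RNA that binds miR399, had 1.87, 0.955 and 1.66 CPM in ixr1-1 DMSO and 4.44, 4.58 and 6.21 CPM in Col-0 isoxaben, 3.71-fold lower (adjusted p = 0.000117).

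Called genes of photosynthesis were lower by small amounts, and their number changed with single libraries. Of 21 nuclear genes of photosystems, antennae and RuBisCO, 6 were lower and 0 higher in ixr1-1 DMSO, with a median of -0.17, and their sum was 50707, 50780 and 46199 CPM in ixr1-1 DMSO and 52760, 60441 and 54131 CPM in Col-0 isoxaben. The number was 3 with library size scaling, 2 without Col-0 isoxaben replicate 3 or ixr1-1 DMSO replicate 1 or 2, 1 without Col-0 isoxaben replicate 2 and 0 without ixr1-1 DMSO replicate 3. RBCS3B, a small subunit of RuBisCO, averaged 2554 ± 289 CPM in ixr1-1 DMSO and 3214 ± 189 CPM in Col-0 isoxaben (adjusted p = 0.00985, and 0.0508 without ixr1-1 DMSO replicate 3).

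The largest lower genes, by a rule on size, level and overlap, were led by AT3G44870, annotated as a methyltransferase, with 0.117, 0.430 and 0 CPM in ixr1-1 DMSO and 3.09, 7.91 and 9.06 CPM in Col-0 isoxaben (log2 -4.75 ± 0.69, adjusted p = 0.00124). It overlaps 11 exon bases of a neighbour on the same strand, and was at 0.405 ± 0.271 CPM in Col-0 DMSO. QQS, an orphan gene tied to starch, had 0.818, 0.716 and 0.487 CPM in ixr1-1 DMSO and 4.83, 6.19 and 4.88 CPM in Col-0 isoxaben, 7.81-fold lower (adjusted p = 6.56e-07). AT4G23050, a kinase with a PAS domain, had 11.4, 11 and 9.54 CPM in ixr1-1 DMSO and 40.6, 40.8 and 39.8 CPM in Col-0 isoxaben, 3.78-fold lower (-1.92 ± 0.088, adjusted p = 1.33e-10). Both QQS and AT4G23050 stood in Col-0 DMSO near their level in Col-0 isoxaben, at 5.6 ± 0.336 and 39.0 ± 1.35 CPM. GA2OX7, which inactivates gibberellin, had 2.57, 2 and 2.63 CPM in ixr1-1 DMSO and 9.37, 8.65 and 9.62 CPM in Col-0 isoxaben, 3.96-fold lower (adjusted p = 6.56e-07). SAG29, a sugar transporter of the SWEET family, averaged 8.67 ± 2.42 CPM in ixr1-1 DMSO and 39.9 ± 11.3 CPM in Col-0 isoxaben, 4.92-fold lower (adjusted p = 0.00208). AT1G14550, a peroxidase, had 1.4, 2.05 and 3.70 CPM in ixr1-1 DMSO and 9.27, 7.68 and 8.51 CPM in Col-0 isoxaben, 3.56-fold lower (adjusted p = 0.000128), with 2.4 ± 0.279 CPM in Col-0 DMSO. The lower genes thus held some that were high in Col-0 isoxaben alone and some that were high in both Col-0 groups.

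**Figure D4:**
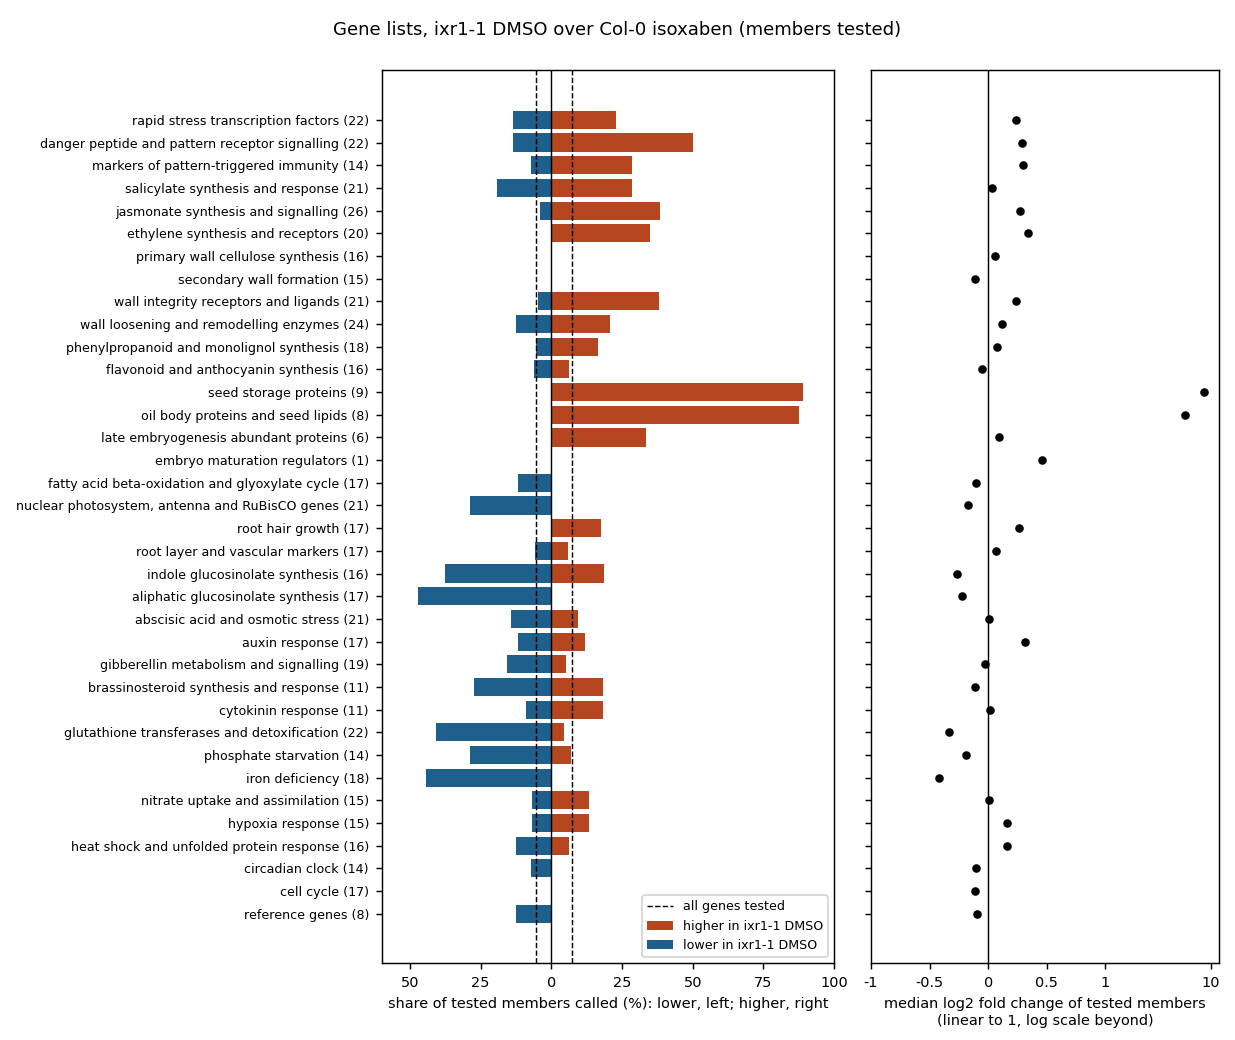
Left, the share of tested members (%) of each of 36 gene lists that was higher (right of 0) or lower (left of 0) in ixr1-1 DMSO than in Col-0 isoxaben, with dashed lines at the shares of all genes tested, 7.47% higher and 5.54% lower. Right, the median log2 fold change of the tested members, on an axis that is linear to 1 and logarithmic beyond. Seed storage and oil body genes stand far to the right, and the iron and aliphatic glucosinolate lists are among those whose called members are all lower.

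The lists hold 609 genes, of which 35 were below the filter on low counts. Over all lists, 98 of 574 tested members were higher and 79 lower in ixr1-1 DMSO, beside 7.47% and 5.54% of all genes. The lists were chosen with earlier results of these data known, so their counts are given as a description.

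The opposite pairing, ixr1-1 with isoxaben against Col-0 with DMSO, shares no library with ixr1-1 DMSO against Col-0 isoxaben and has the same change of genotype with the treatments exchanged. Seedlings of each genotype came from flasks divided between treatments, so both comparisons may draw on the same flasks, and genes in common are no independent repeat. In it 2135 genes were higher (10.5%) and 1751 lower (8.59%), 19.1% together. Of these, 1101 genes were higher in both comparisons, 72.3% of those higher in ixr1-1 DMSO against Col-0 isoxaben and 51.6% of those higher in ixr1-1 isoxaben against Col-0 DMSO. The lower genes in common numbered 720, 63.8% and 41.1% of each set. RLP21 was at 11.8 ± 3.91 CPM in ixr1-1 isoxaben and 0.921 ± 0.156 CPM in Col-0 DMSO, and QQS at 0.446 ± 0.242 CPM in ixr1-1 isoxaben and 5.6 ± 0.336 CPM in Col-0 DMSO. Storage protein genes summed to 103, 410 and 614 CPM in ixr1-1 isoxaben and 1.02, 1.2 and 3.04 CPM in Col-0 DMSO.

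**Figure D5:**
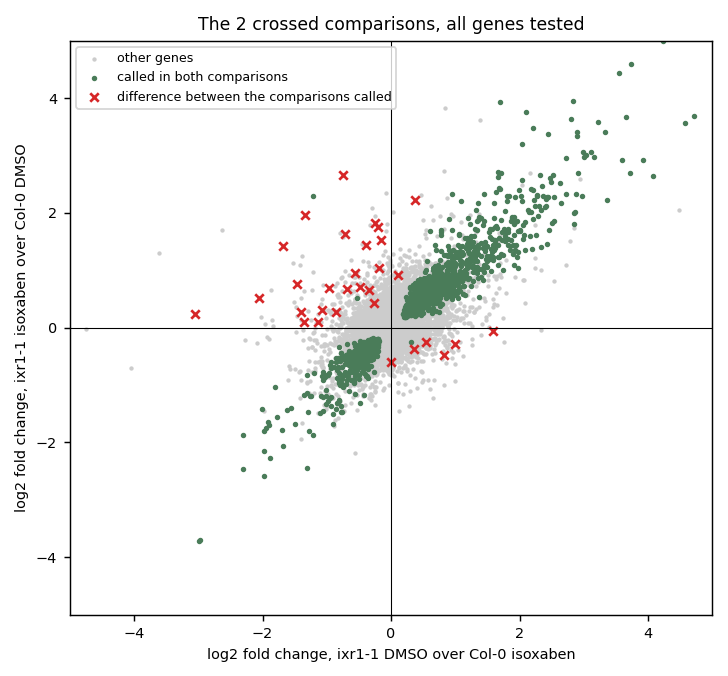
Log2 fold change of ixr1-1 DMSO over Col-0 isoxaben (horizontal) against that of ixr1-1 isoxaben over Col-0 DMSO (vertical) for each gene tested, with genes called in both comparisons in green and genes whose difference between the comparisons was called as red crosses. The axes end at 5 in each direction and leave out 30 genes. Green points fill the upper right and lower left, and for 25 of the 31 crosses the horizontal value is below the vertical one.

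The test of the difference between both comparisons, which by its construction is minus the sum of the isoxaben changes in the 2 genotypes, called 6 genes higher (0.0294%) and 25 lower (0.123%), 0.152% of the genes tested, with 1338 at an unadjusted p under 0.05. ERF13 had the smallest p: it was lower in ixr1-1 DMSO than in Col-0 isoxaben, and 2.39 ± 0.0680 CPM in ixr1-1 isoxaben against 0.594 ± 0.213 CPM in Col-0 DMSO, a difference of log2 changes of -3.30 (adjusted p = 0.000246). CML39 was at 0.734 ± 0.115 CPM in ixr1-1 isoxaben and 0.629 ± 0.169 CPM in Col-0 DMSO (difference -3.30, adjusted p = 0.00158). For PEPR2 the difference was -1.37 (adjusted p = 0.0194) and for NPR3 -1.14 (adjusted p = 0.0107). The pectin lyase-like AT1G05650 went the other way, with 14.5 ± 1.64 CPM in ixr1-1 isoxaben and 17.6 ± 2.10 CPM in Col-0 DMSO (difference 1.28, adjusted p = 0.00092). Genes called in opposite directions in the 2 comparisons were few: 3 were higher in ixr1-1 DMSO and lower in ixr1-1 isoxaben against their Col-0 groups, the root hair gene RHS12, the efflux carrier DTX1 and BGLU10, a beta-glucosidase. DTX1 lost its call in ixr1-1 DMSO against Col-0 isoxaben without Col-0 isoxaben replicate 2 or 3 or ixr1-1 DMSO replicate 1 or 2 (up to 0.11). The reverse held for 8 genes, ERF13, ERF6, CZF1, DLAH, GSTU11, AT5G28610, AT3G28580 and AT3G62690. Those of the 11 that no rule named are given because their number is small.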

How the data were processed

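RNA sequencing libraries were made from seedlings with a stranded mRNA kit from 500 ng of total RNA, per the labels' protocols. The deposited values are whole-number counts of reads per gene, made by the authors, and STAR 2.4.1, featureCounts 1.4.6, FastQC 11.1 and bcl2fastq appear in the submitters' processing notes. The counting's genome build, annotation and strand setting were not given in the sources used here, so reads of genes that overlap on opposite strands cannot be told apart. At 97.9% of 120747 gaps between exons of the deposited coordinates, the TAIR10.1 bases were GT and AG.

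Groups came from the sample titles. Genes were kept with edgeR 4.0.16 filterByExpr, scaled by TMM and tested with the quasi-likelihood test on all 12 libraries with a term for each group (R 4.3.3), at a Benjamini-Hochberg adjusted p under 0.05. CPM are TMM-scaled, a 95% interval comes from that fit, and SD is over 3 libraries. For a gene at 0 in a group, 3 counts in that whole group served as the floor, 0.0712 CPM in Col-0 isoxaben. Depth limits precision for genes of few counts. The test was checked on simulated data with known changes.

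Genes were named by a rule: CESA3, the 12 highest and 12 lowest called genes (average log2 CPM 1 or more, libraries not overlapping), up to 4 called genes of each list by p, 12 rising and 6 falling genes of the isoxaben effect in Col-0, and 6 higher and 6 lower genes of the difference between the crossed comparisons. Some list members and the 20 highest genes outside the seed lists were chosen after seeing their values. These 20 had to be called and to meet the same conditions on level and overlap. The comparison and the lists were chosen with earlier results of these data known. Replicate numbers did not pair ixr1-1 DMSO with Col-0 isoxaben, since same-numbered libraries had correlations of -0.091, 0.086 and 0.109. Alternatives were other scalings and filters, DESeq2 1.42.0, limma-voom (limma 3.58.1), a replicate block, the seed storage level as a covariate, a fit of the 2 groups alone, a 2-fold minimum and leaving out each library. Promoters are from the RefSeq annotation of TAIR10.1.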

Additional observations from a re-analysis of the deposited data

Results flagged for a closer look

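Each of the following genes differed between the 2 crossed comparisons, ixr1-1 DMSO against Col-0 isoxaben and ixr1-1 isoxaben against Col-0 DMSO, by the test of that difference (edgeR's quasi-likelihood test, Benjamini-Hochberg adjusted p under 0.05). The values are differences of log2 changes, the first comparison minus the second, and they equal minus the sum of the isoxaben changes in both genotypes. Only named genes were looked at. Many had been named for a small p with isoxaben in Col-0, on the same Col-0 libraries, or by this test itself. Their sign and call are thus partly built in, and nothing is read from their number. Transcription factors had -3.30 for ERF13, -1.51 for ERF6 and -1.85 for WRKY40. Signalling genes had -3.30 for CML39, -3.41 for AT3G29000, -1.37 for PEPR2, -1.14 for NPR3 and -1.95 for AT5G41750. The wall protein EXLA3 had -2.23. Other genes of negative sign were AT5G28610 at -3.10, AT5G52670, of a copper transport family, at -2.58, AT1G07135 at -1.82, AT4G29780 at -1.23, AT1G14040 at -1.23 and AT3G56880 at -0.80.

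The genes of positive sign were the pectin lyase-like AT1G05650 at 1.28, CYP718 at 1.65, RHS12 at 1.3, AT2G47360 at 0.79, DTX1 at 0.74 and the iron peptide IMA3 at 0.60. RHS12 lost its call without Col-0 isoxaben replicate 2 (adjusted p = 0.0837). The call ended without any 1 of 8 of the 12 libraries for DTX1 (up to 0.135), 9 for IMA3 (up to 0.128) and 10 for CYP718 (up to 0.193), and without any of the 12 for AT2G47360 (up to 0.135). A stretch of DTX1 is near-identical to another gene.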

How the results depend on the processing

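Limits were as follows. With 3 libraries a group, many calls moved with a single library. Within ixr1-1 DMSO against Col-0 isoxaben, genotype, treatment and seed storage level cannot be told apart. Against Col-0 DMSO, the same fit called 17.2% of genes in ixr1-1 DMSO and 0.780% in Col-0 isoxaben. With the storage level as a covariate 0 genes were called higher and 0 lower in ixr1-1 DMSO than in Col-0 isoxaben, with 1043 at an unadjusted p under 0.05.

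Of 1522 genes higher in ixr1-1 DMSO than in Col-0 isoxaben, a 2-fold minimum left 409, and leaving out 1 library gave 941 to 1547. Of 1129 lower genes it left 99, and leaving out 1 library gave 605 to 1066. The other settings gave 1299 to 1946 higher and 837 to 1593 lower genes, and DESeq2 called 2361, of which 2215 were called the same way by edgeR. The replicate numbers do not pair ixr1-1 DMSO with Col-0 isoxaben. Between Col-0 isoxaben and Col-0 DMSO, same-numbered libraries had correlations of 0.030, 0.140 and 0.205, and different-numbered ones -0.157 to 0.030. These groups may share flasks, and the main fit has no term for such a pairing. With a replicate block 1877 genes were higher and 1593 lower, the call of FRK1 ended, and CC1, CDKB1;1, AT3G29000 and WRKY40 passed. For ixr1-1 isoxaben against Col-0 DMSO, the 3886 calls became 0 with the covariate (1085 unadjusted) and 544 with the 2-fold minimum, 4814 with the block, and 2644 to 3389 without 1 library. For ixr1-1 DMSO against Col-0 DMSO, the 3509 calls became 0 (1119 unadjusted), 620, 4320 and 2281 to 3387. For Col-0 isoxaben against Col-0 DMSO, 159 became 243 with those groups alone, 77 with the 2-fold minimum, 233 with the block, and 77 to 127 without 1 library. The difference between the crossed comparisons called 31 genes, 47 with no filter, 62 with DESeq2, 98 with the block and 18 to 52 without 1 library. Of list members, 65 to 100 were higher and 57 to 68 lower without 1 library.

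Among 200 gene results, sign changes were counted only where the main fit or the other setting called the gene. By that count 37 changed sign, each with the storage level as a covariate and none with another setting. Their adjusted p with the covariate was 0.894 to 1. On the log2 scale the values were SESA1 -0.61, SESA4 -2.19, SESA2 -0.98, AT3G01570 -2.36, AT2G05580 -4.64, OLEO3 -4.41, CLO2 -4.29, FAE1 -2.03, HSFA4A -0.35, WRKY53 -0.39, WAKL10 -1.74, COMT1 -0.004, CKX4 -0.12, ARR16 -0.042, AOX1A -0.23, LBD41 -1.08, MPK3 -0.45, LOX3 -0.60, JAZ10 -0.44, AOX1B 0.83, GSTU25 0.54, GSTU24 0.68, GSTU22 0.54, PMDH2 0.22, RCA 0.042, AOP2 0.12, CYP79F1 0.43, ABA1 0.34, GA20OX1 0.25, CPD 0.32, UGT74E2 0.14, MGD3 0.27, AT1G73010 0.56, HSP70 0.87, LNK1 0.26, ERF6 0.23 and PR1 2.30. The cause was not tested.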

Other observations

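Hormone lists beside those of the report each held higher and lower genes. Of all genes tested, 7.47% were higher and 5.54% lower. The values are given for ixr1-1 DMSO against Col-0 isoxaben with edgeR's quasi-likelihood test and Benjamini-Hochberg adjustment. Of 19 gibberellin genes, 1 was higher and 3 lower. GASA1, a small peptide that brassinosteroid and gibberellin regulate, had 182, 163 and 178 CPM in ixr1-1 DMSO and 307, 393 and 324 CPM in Col-0 isoxaben, 1.96-fold lower without overlap (adjusted p = 7.09e-07). The gibberellin receptor GID1A was lower (log2 -0.57, adjusted p = 0.000314), and GASA6, a relative of GASA1, higher (0.62, adjusted p = 6.59e-05). Of 11 brassinosteroid genes, 2 were higher and 3 lower, among them the synthesis enzymes BR6OX2 (-0.53, adjusted p = 0.000588) and CPD (-0.57, adjusted p = 0.00173). The lower ones numbered 3 whichever library was left out, and 0 were higher without ixr1-1 DMSO replicate 2. Of 21 tested abscisic acid genes, 2 were higher and 3 lower, of 17 auxin genes 2 and 2, and of 11 cytokinin genes 2 and 1. Without 1 library, 1 or 2 abscisic acid genes were higher and 1 to 3 lower, 1 to 4 auxin genes higher and 0 or 1 lower, and 0 to 2 cytokinin genes higher and 1 lower.

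In root and wall lists, LRX2, an extensin-like protein of root hair walls, had 35.3, 41.1 and 37.2 CPM in ixr1-1 DMSO and 21.4, 16.7 and 15.3 CPM in Col-0 isoxaben, 2.16-fold higher without overlap (adjusted p = 2.61e-05). It was 1 of 3 higher genes among 17 of root hairs, and 1 was higher without Col-0 isoxaben replicate 2 or 3 or ixr1-1 DMSO replicate 2. Of 17 markers of root layers 1 was higher, HKT1, a sodium transporter (0.77, adjusted p = 0.000657), and 1 lower. Of 18 phenylpropanoid genes 3 were higher and 1 lower, and CCoAOMT1, a methyltransferase of lignin units, averaged 1026 ± 55.5 CPM in ixr1-1 DMSO and 805 ± 33.2 CPM in Col-0 isoxaben (adjusted p = 0.00149). Without 1 library, 1 to 4 phenylpropanoid genes were higher and 0 or 1 lower. Of 16 tested flavonoid genes 1 was higher and 1 lower, and 0 to 3 were higher and 0 to 2 lower without 1 library. The counts of these lists stand beside 7.47% higher and 5.54% lower of all genes.

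Counts in the remaining lists also stand beside 7.47% higher and 5.54% lower of all genes. In them, 2 genes of 15 of nitrate were higher and 1 lower, and 2 of 15 of hypoxia higher and 1 lower. Among 16 genes of heat shock and protein folding, 1 was higher and 2 lower. Without 1 library, 0 or 1 of nitrate and of hypoxia and 0 to 2 of heat shock were lower. The higher genes of hypoxia numbered 1 without any 1 library but ixr1-1 DMSO replicate 1, and LBD41 lost its call in those fits (adjusted p up to 0.302) and with DESeq2 or limma-voom (up to 0.114). BZIP60, a factor of the unfolded protein response, was higher (0.64, adjusted p = 0.000166). Of 17 genes of fatty acid breakdown and the glyoxylate cycle, by which seedlings use seed oil, 0 were higher and 2 lower, CSY2 (-0.39, adjusted p = 0.00491) and PMDH2, whose call ended without Col-0 isoxaben replicate 2 (adjusted p = 0.0596). The lower ones numbered 1 without that library and 4 without ixr1-1 DMSO replicate 3. Of 14 clock genes 1 was lower, LNK1 (-0.33, adjusted p = 0.00409). Of 17 cell cycle genes 0 passed, and 2 were lower without ixr1-1 DMSO replicate 1. Of 8 reference genes 1 was lower, GAPC1 (-0.34, adjusted p = 0.00658).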
